A study of Mus musculus with 6 samples.

Results

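The genes Csrp1, Csrp2, Csrp3 and Fhl1 encode small proteins built of LIM domains, zinc-binding modules through which proteins dock onto each other. Every probe set that the platform annotation gives to one of these symbols was taken, whatever its values. That gave 7 probe sets for 4 genes, among 12488 probe sets on the array and 8251 genes with a probe set of their own. Csrp1 had 2 probe sets, Csrp2 and Csrp3 had 1 each, and Fhl1 had 3.

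Signals were read on Affymetrix MGU74Av2 arrays, made of short DNA probes against mouse transcripts, after hybridisation with total RNA of the tibialis anterior, the muscle at the front of the shin. The eccentric group had received 50 contractions during which the active muscle was lengthened, and the isometric group 50 contractions at constant length. The control group was muscle of the opposite legs, which had contracted only as often as a torque measurement required, and all 3 groups were collected 48 h after the exercise. Each group was 1 RNA pool of 4 animals hybridised to 2 arrays, A and B, so every SD below is over n = 2 arrays of 1 pool and says nothing of the spread between animals. The opposite leg belongs to an exercised animal, of which exercise the labels do not say, and they give no strain, sex or age of the mice.

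LIM proteins of the Csrp family carry a pair of LIM domains, bind alpha-actinin and other actin-associated proteins, and can also enter the nucleus and act as cofactors of transcription. Csrp3, known as muscle LIM protein, is the striated-muscle member. It sits at the Z-disc, where actin filaments of neighbouring sarcomeres are anchored, and is required for normal heart muscle in mice. Csrp1 and Csrp2 are best known from smooth muscle and other cells with abundant actin fibres. Fhl1 is an abundant LIM protein of skeletal muscle, found in sarcomeres and at the muscle membrane, and its mutation causes myopathies in humans.

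Promoter windows of Csrp3, Csrp1 and Fhl1 are shown, the first because Csrp3 had the largest difference between pools among the 4 genes and the others to set beside it. Csrp2 is not shown. Each runs from 250 bases before to 50 after an annotated start site, is written 5′ to 3′ on the strand of the gene, and comes from RefSeq on the GRCm38.p6 assembly. Capitals mark E-boxes, the CANNTG sites read by myogenic factors among others, and in Fhl1 also a match to the CArG consensus, the site of serum response factor.
Csrp3, chr7:48848002-48848301, minus strand: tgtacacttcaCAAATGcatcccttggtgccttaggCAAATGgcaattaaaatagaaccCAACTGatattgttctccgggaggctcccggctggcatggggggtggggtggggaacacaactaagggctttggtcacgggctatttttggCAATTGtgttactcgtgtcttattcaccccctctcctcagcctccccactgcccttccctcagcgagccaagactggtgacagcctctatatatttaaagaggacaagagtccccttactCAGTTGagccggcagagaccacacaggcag
Csrp1, chr1:135719813-135720112, plus strand: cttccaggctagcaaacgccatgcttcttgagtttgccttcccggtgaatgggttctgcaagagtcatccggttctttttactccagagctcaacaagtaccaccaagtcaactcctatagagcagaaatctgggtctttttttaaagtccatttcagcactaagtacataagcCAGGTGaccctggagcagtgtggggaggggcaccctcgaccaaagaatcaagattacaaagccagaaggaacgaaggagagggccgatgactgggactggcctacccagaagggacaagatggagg
Fhl1, chrX:56779433-56779732, plus strand: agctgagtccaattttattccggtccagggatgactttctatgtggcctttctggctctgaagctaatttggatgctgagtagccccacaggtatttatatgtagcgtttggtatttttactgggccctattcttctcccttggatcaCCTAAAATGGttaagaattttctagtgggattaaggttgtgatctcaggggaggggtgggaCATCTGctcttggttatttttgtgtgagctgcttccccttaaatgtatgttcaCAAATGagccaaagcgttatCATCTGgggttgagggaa

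The Csrp3 window held 5 E-boxes, the Csrp1 window 1 and the Fhl1 window 3. Of 32851 mouse promoter windows of the same length, 72.3% held at least 1 E-box, 17.6% at least 3 and 2.10% at least 5. Each annotated second start site had its own window, with 4 E-boxes for Csrp3, 1 for Csrp1 and 3 for Fhl1. The CArG match in the Fhl1 window began at position -102 relative to the start site, and 1.63% of all windows held one. Neither strand of any of the 6 windows held the MEF2 consensus (3.19% of all windows) or the M-CAT letters CATTCC (14.7%). CANNTG and the CArG consensus read the same on both strands, and no 2 capitalised matches overlapped. These are matches of letters and were not tested for function.

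Median signals were close across the 6 arrays, at 187 to 197, while the highest signal ran from 36101 (isometric A) to 58953 (isometric B). The floor, below which values were treated as equal, was the signal of 120.8 at the 40th percentile, and 59.2% to 61.2% of probe sets lay above it on each array. A probe set counted as measured in a comparison when at least 1 pool had both of its arrays above the floor. It was called when the mean log2 signals differed by at least 1, which is 2-fold, and the sign was the same in all 4 pairings of single arrays. Log2 differences below are differences of mean floored log2 signals. Arrays of the same pool differed by a median of 0.14 (eccentric), 0.24 (isometric) and 0.22 (control) on the log2 scale. The 18S rRNA signal differed between partner arrays, with isometric B at 23476 against 1761 on isometric A and control A at 15860 against 3870 on control B, so counts were also taken without control A and isometric B.

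Of the 7 probe sets 6 were measured in the eccentric against control comparison, and 1 of them, that of Csrp3, was called higher and 0 lower. Over all 6744 measured probe sets 6.12% were called, 5.0% higher and 1.13% lower. All 6 measured probe sets, of 4 genes, had both eccentric arrays above both control arrays, an arrangement seen upward in 30.4% and downward in 31.0% of all measured probe sets and upward in 30.8% of genes. Csrp2 was measured only through its eccentric arrays, so its place above the floor fixed its direction. In the isometric against control comparison 5 were measured and 0 were called, where 1.27% of all probe sets were called, 0.908% higher and 0.363% lower. In 3 of the 5 (both of Csrp1 and that of Csrp3) the isometric arrays lay above the control arrays, as in 18.6% of probe sets and 18.9% of genes, and in 1 (Fhl1) below, as in 19.2% and 18.4%. In the eccentric against isometric comparison 6 were measured and 1, Csrp3, was called higher, where 2.36% of all probe sets were called, 1.73% higher and 0.631% lower. In 5 of these 6 the eccentric arrays lay above the isometric arrays, as in 28.2% of probe sets and 28.5% of genes, against 24.3% and 25.1% with the eccentric arrays below, and in 1 they overlapped. The 4 genes were chosen with earlier results of these data known, and probe sets of the same gene share a transcript, so these counts are a description. With 1 pool per group no test over animals was possible.

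**Figure D1:**
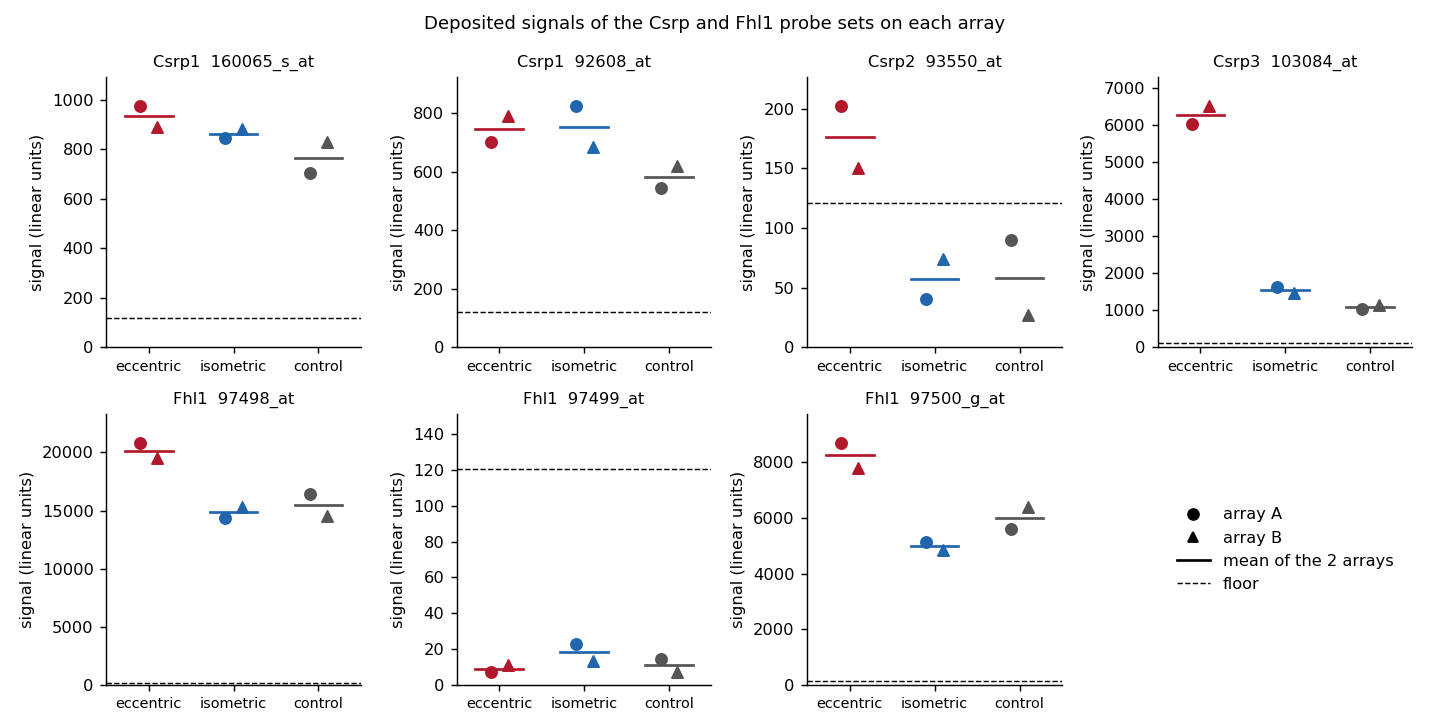
Deposited linear signal of each of the 7 probe sets (y axis, starting at 0) on the eccentric, isometric and control arrays; circles are array A, triangles array B, horizontal lines the mean of the 2 arrays, and the dashed line the floor of 120.8. Both eccentric arrays of Csrp3, at 6022 and 6504, lie far above the other 4, while Fhl1 97499_at lies below the floor on every array.

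Csrp3 was the member with the largest difference. Its probe set 103084_at had signals of 6022 and 6504 on the eccentric arrays, 1637 and 1470 on the isometric arrays and 1049 and 1133 on the control arrays. The pools did not overlap, and their order was eccentric, isometric, control. The eccentric pool averaged 6263 ± 341, the isometric pool 1553 ± 118 and the control pool 1091 ± 59.1 (SD, n = 2 arrays each). Against the control pool the eccentric pool was 5.74-fold higher, a log2 difference of 2.52 with pairings of single arrays from 2.41 to 2.63. That was rank 5 of 6744 measured probe sets, behind those of Ankrd1, Cd53, Adam8 and H2-K2, the last on a probe set that can also read related genes.

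Csrp3 was also 4.04-fold higher in the eccentric than in the isometric pool, a log2 difference of 2.01 and rank 12 of 6653. Between the isometric and the control pool Csrp3 differed by 1.42-fold, a log2 difference of 0.51 with pairings from 0.38 to 0.64. This difference had the same sign in every pairing, as it had upward for 18.6% of all measured probe sets, and did not reach 2-fold. It ranked 405 of 6609. limma fitted to the 6 arrays, with Benjamini-Hochberg adjustment over 6880 probe sets, gave adjusted p = 0.00376 for Csrp3 between eccentric and control, 0.00800 between eccentric and isometric, and 0.357 between isometric and control. These values weigh the difference against the spread between arrays and compare the pools, not the kinds of contraction.

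**Figure D2:**
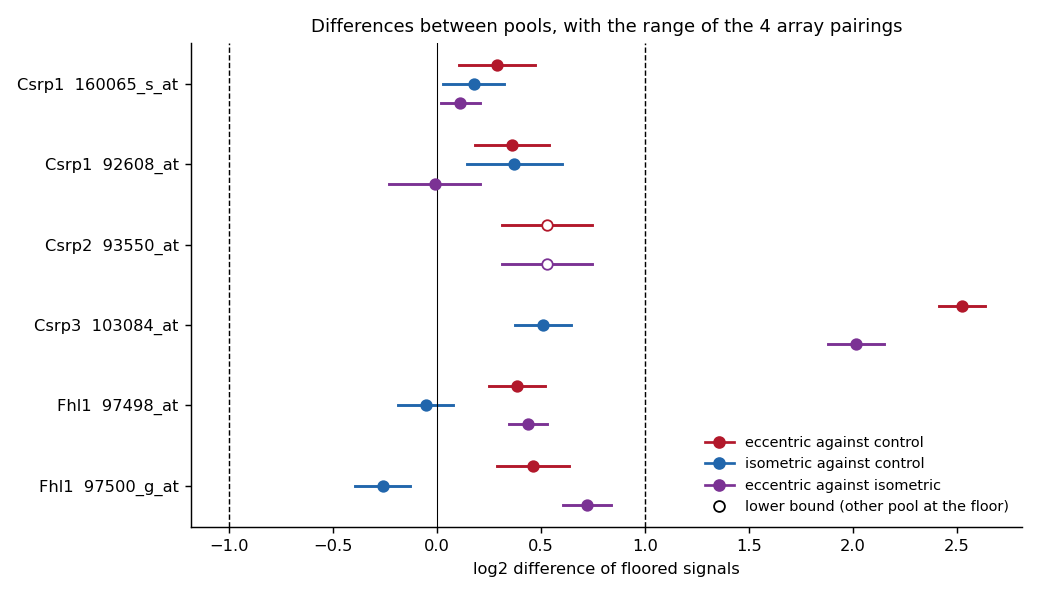
Log2 difference of floored signals (x axis) for the 6 measured probe sets (rows) in the eccentric against control, isometric against control and eccentric against isometric comparisons; dots are differences of means, lines span the 4 pairings of single arrays, open dots are lower bounds and dashed lines mark 2-fold. Csrp3 is the only probe set past 2-fold, at 2.52 and 2.01, and its isometric value of 0.51 lies within it.

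Fhl1, the abundant LIM protein of skeletal muscle, had modestly higher signals in the eccentric pool on both measured probe sets. On 97498_at the signals were 20773 and 19501 on the eccentric arrays, 14386 and 15324 on the isometric arrays and 16400 and 14510 on the control arrays. The eccentric arrays stood above all others, and the isometric and control arrays overlapped. The eccentric pool was 1.30-fold above control, at 20137 ± 899 against 15455 ± 1336, and 1.36-fold above isometric, at 14855 ± 662. On 97500_g_at the signals were 8685 and 7818 on the eccentric arrays, 5130 and 4866 on the isometric arrays and 5605 and 6392 on the control arrays. Here the 3 pools did not overlap, and their order was eccentric, control, isometric.

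The 97500_g_at signal of the eccentric pool was 1.38-fold above control and 1.65-fold above isometric, log2 differences of 0.46 and 0.72. That of the isometric pool lay below control by a log2 difference of -0.26, while on 97498_at the value was -0.06. None of these reached 2-fold, and the smallest limma adjusted p of an Fhl1 probe set was 0.0857, for 97500_g_at between eccentric and isometric. The control arrays differed from each other on 97500_g_at by 0.19 on the log2 scale, which is close to the size of the isometric difference. The platform annotation derives 97499_at and 97500_g_at from the same sequence, yet 97499_at had signals of 7.2 to 22.9 on the 6 arrays, all below the floor, and gave no measurement. The suffix g marks a probe set that Affymetrix lists as open to signal from related transcripts. Probe sequences were not used here, so which Fhl1 transcript forms each probe set reads is not known.

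Csrp1, the broadly expressed member, differed little between pools. On 160065_s_at its signals were 974 and 891 on the eccentric arrays, 843 and 880 on the isometric arrays and 703 and 828 on the control arrays. The order was eccentric, isometric, control with no overlap, but the closest eccentric and isometric arrays differed by only 0.017 on the log2 scale. On 92608_at the signals were 702 and 791 on the eccentric arrays, 825 and 685 on the isometric arrays and 544 and 620 on the control arrays. On this probe set the eccentric and isometric arrays overlapped, and both pools lay above control.

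Log2 differences of Csrp1 from the control pool on 160065_s_at were 0.29 (eccentric) and 0.18 (isometric), and on 92608_at 0.36 (eccentric) and 0.37 (isometric). The 2 control arrays differed from each other by 0.24 on 160065_s_at and by 0.19 on 92608_at on the same scale. The isometric difference on 160065_s_at was thus smaller than the gap between the control arrays, the eccentric one was slightly larger, and both differences on 92608_at were larger than that gap. None was called by limma, where the smallest adjusted p of a Csrp1 probe set was 0.245. The eccentric differences from control held ranks 1719 and 1438 of 6744. The suffix s marks a probe set that Affymetrix lists as shared by several transcripts.

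Csrp2, known from smooth muscle and activated stellate cells, was near the lower end of what the arrays measured. Its probe set 93550_at had signals of 202 and 150 on the eccentric arrays, 40.3 and 74.3 on the isometric arrays and 90.0 and 27.0 on the control arrays. Only the eccentric arrays lay above the floor. The eccentric pool was therefore at least 1.44-fold above either other pool, which was not called, and the isometric and control pools could not be compared. With the floor lowered to the 20th percentile, a signal of 39.1, the log2 differences became 1.55 against control and 1.67 against isometric and both were called. The control arrays, at 90.0 and 27.0, differed by more than the isometric and control means, at 57.3 and 58.5, so no order of those pools can be given.

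**Figure D3:**
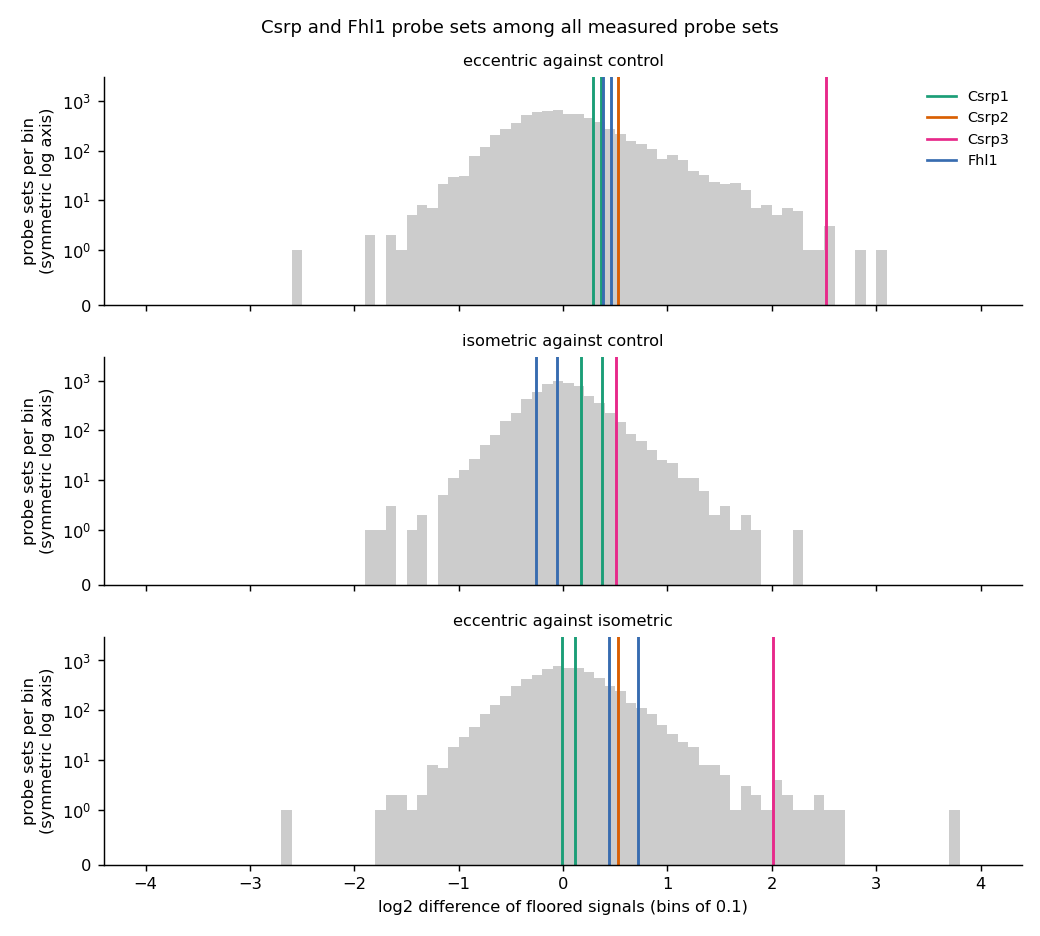
Number of measured probe sets per bin of 0.1 (y axis, symmetric log scale) by log2 difference (x axis) in the 3 comparisons, with vertical lines at the measured probe sets of Csrp1, Csrp2, Csrp3 and Fhl1. Csrp3 lies in the sparse upper end in the eccentric against control comparison (rank 5 of 6744) and the eccentric against isometric comparison (rank 12 of 6653), and the other members lie in the body of the distribution.

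Other LIM-domain genes were set beside the members in 4 lists: the Fhl family, PDZ-LIM proteins, LIM proteins of focal adhesions and the actin cytoskeleton, and nuclear LIM proteins. Of 56 genes 37 were on the array and 30 were measured between eccentric and control. Of these 4 were called higher and 0 lower, and 26 missed the 2-fold rule. The median was 0.11 against -0.02 over all 5682 measured genes, of which 5.16% were called higher and 1.06% lower. Crip1, a small LIM protein related to the Csrp proteins, had 6354 and 6133 in the eccentric pool against 2548 and 2519 in the control pool, a log2 difference of 1.30. Pdlim3, a PDZ-LIM protein that binds alpha-actinin at the Z-disc, had 6590 and 6739 against 2995 and 3669, a log2 difference of 1.01. Its call was lost without control A, at 0.86, and without eccentric B, at 0.99.

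Trip6, a LIM protein of focal adhesions, had 385 and 447 in the eccentric pool against 286 and 101 in the control pool. Control B lay below the floor, so Trip6 was measured only through its eccentric arrays. Lmo2, a nuclear LIM protein of blood and endothelial cells, had 666 and 626 against 333 and 290, and its dimmer second probe set, at 0.61 on the log2 scale, missed the rule. The calls of Trip6 and Lmo2 were lost without control B, at log2 differences of 0.54 and 0.96. Without eccentric B, Limk1, a kinase that acts on cofilin, was called lower at -1.01, outside the naming rule and named after its values were seen.

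The closest relative of Fhl1 on the array, Fhl2, a heart-enriched LIM protein, had 302 and 336 on the eccentric arrays, 215 and 253 on the isometric arrays and 304 and 288 on the control arrays. Its eccentric and control arrays overlapped, and its isometric arrays lay below both. Nrap, which has a LIM domain and nebulin-like repeats and helps assemble myofibrils, had 10181 and 11393 on the eccentric arrays, 5943 and 7931 on the isometric arrays and 9513 and 8280 on the control arrays. Its pools did not overlap, and its order was the one seen for Fhl1 on 97500_g_at. Ldb3, a PDZ-LIM protein of the Z-disc, had 14675 and 14021 in the eccentric pool and 24242 and 17418 in the control pool, a log2 difference of -0.52. Zyx, the LIM protein zyxin, lay below the floor on 5 of 6 arrays.

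Between isometric and control 0 of 29 measured LIM genes were called, where 0.915% of genes were called higher and 0.323% lower, and without control A Trip6 was called higher at 1.19. Trip6 was then measured only through its isometric arrays, as control B lay below the floor. limma called 0 probe sets of any gene in this comparison, with 690 at an unadjusted p under 0.05 and 614 with a replicate block. Crip1 had 3700 and 5024 in the isometric pool against 2548 and 2519 in the control pool, a log2 difference of 0.77. Between eccentric and isometric Pdlim3 alone of 30 was called higher, at 1.13, where 1.73% of genes were called higher and 0.676% lower. This call was lost without isometric B, at 0.75, when Lhx1 was called lower at -1.09, a gene named after its values were seen.

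**Figure D4:**
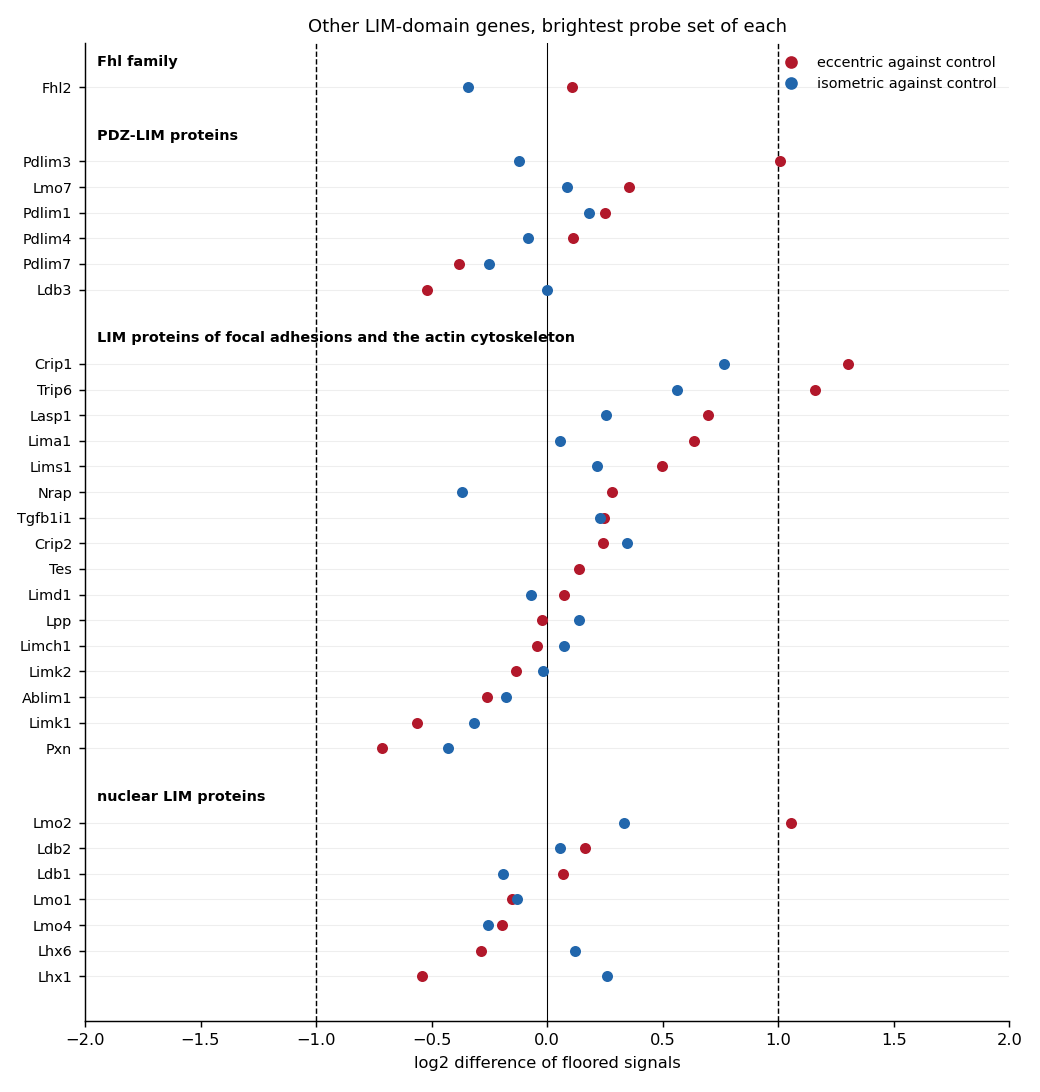
Log2 difference of floored signals (x axis) of the measured genes of 4 lists of other LIM-domain genes (rows), in the eccentric against control and isometric against control comparisons; dashed lines mark 2-fold. Crip1, Trip6, Lmo2 and Pdlim3 lie past 2-fold in the eccentric pool, at 1.01 to 1.30, and no gene does in the isometric pool.

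Proteins that bind muscle LIM protein or act with it included calls in both directions. Of 30 listed partners 22 were measured between eccentric and control, with 3 called higher, 1 called lower, 18 not passing and a median log2 difference of 0.09, where 5.16% of all measured genes were called higher and 1.06% lower. Actn2, the muscle alpha-actinin to which Csrp3 binds, had 473 and 359 in the eccentric pool against 473 and 442 in the control pool. Tcap, the titin cap protein that binds Csrp3, had 304 and 189 against 253 and 539, with overlapping arrays, and was called lower without control A, at -1.17. Des, the intermediate filament desmin, had 4194 and 4304 against 3834 and 3681, and Vcl, the adhesion protein vinculin, had 2832 and 2723 against 2486 and 2520. Neither reached 2-fold, and the second, dimmer probe set of Vcl had a log2 difference of -0.44.

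The partners that passed were Rcan1, Ppp3cb, Cfl1 and Myog, and other listed genes of the same kinds did not pass. Between eccentric and control the calcineurin subunit genes Ppp3ca and Ppp3r1 had log2 differences of -0.23 and -0.46. The cofilin gene Cfl2 had -0.42, and the myogenic factors Myod1 and Myf6 both had 0.42. These uncalled genes were named after their values were seen. Rcan1, an inhibitor and known target of the phosphatase calcineurin, had 2360 and 2374 on the eccentric arrays, 1144 and 705 on the isometric arrays and 1090 and 1145 on the control arrays. It was called higher in the eccentric pool against both others, at log2 differences of 1.08 against control and 1.40 against isometric. Ppp3cb, a catalytic subunit of calcineurin, had 392 and 453 in the eccentric pool against 766 and 1149 in the control pool, a log2 difference of -1.15 that fell short without control B, at -0.86. Cfl1, the actin-severing protein cofilin, was higher by 1.05, and its call was lost without eccentric A, at 0.91, and without control B, at 0.84. Myog, the myogenic factor myogenin, was higher by 1.09, and its call was lost without eccentric A, at 0.81. The eccentric and isometric arrays of Myog overlapped, with a log2 difference of 0.20. Between isometric and control 0 of 22 partners were called, where 0.915% of all measured genes were called higher and 0.323% lower. Myog differed by 0.89 in that comparison, with both isometric arrays above both control arrays. Without isometric A, Myog was called higher there at 1.28 and Ppp3cb lower at -1.04, and without control A Ppp3cb was called lower at -1.01.

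Csrp3 is more abundant in slow than in fast fibres, and lists of both fibre types were read beside it. Of 12 slow-fibre genes 11 were measured between eccentric and control, and their median log2 difference was -0.40. With all arrays only Atp2a2, the slow calcium pump, was called higher, where 5.16% of all measured genes were called higher and 1.06% lower. Atp2a2 had 282 and 293 in the eccentric pool against 40.7 and 158 in the control pool. Its call was lost without control A, at 0.87. In that setting the slow-fibre gene Casq2, at 0.74 with all arrays, was called higher instead, a gene named after its values were seen. Atp2a2 and Casq2 each had 1 control array below the floor, so both were measured only through their eccentric arrays. Myh7, the slow myosin heavy chain, had 167 and 312 on the eccentric arrays, 400 and 431 on the isometric arrays and 127 and 424 on the control arrays, where the probe set may also read other myosins. Tnni1, the slow troponin I, had 401 and 589 in the eccentric pool against 539 and 558 in the control pool. In all, 2 of the 11 slow-fibre genes had a difference above 0, and without eccentric B 1 was called lower.

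Of 15 fast-fibre genes, which define this muscle, 14 were above the floor on all 6 arrays and Myh2 on none. Their median between eccentric and control was -0.30 with 0 called, where 5.16% of all measured genes were called higher and 1.06% lower. Both eccentric arrays lay below both control arrays in 13 of 14, as in 31.0% of all measured genes. Summed fast-fibre signals were 313424 to 325877 in the eccentric pool, 318389 to 450263 in the isometric pool and 363317 to 452797 in the control pool. In whole muscle, fewer cells of a type and less RNA per cell cannot be told apart.

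Of the marker lists of other cells, that of macrophages had the largest median difference between the eccentric and control pools. Of 22 macrophage markers 19 were measured between eccentric and control and 15 were called higher, with a median of 1.62, where 5.16% of all measured genes were called higher. Fcgr2b, Fcer1g and Ptprc were at the floor on both control arrays and so were measured only through the eccentric pool, and of these Fcgr2b was called. Cd53, Itgb2 and Adgre1 were at the floor on 1 control array each. They were thus also measured only through the eccentric pool, and all were called. The summed signal of all 22 macrophage markers was 33589 to 33661 in the eccentric pool, 18844 to 18874 in the isometric pool and 11011 to 11554 in the control pool, the order of pools seen for Csrp3. Aif1 was at the floor on both arrays of every pool, and Itgam on both arrays of the isometric and the control pool. Cd53, Msr1, Tyrobp and Cd68 had the largest differences among the called markers, at 2.83, 1.99, 1.91 and 1.87. Dimmer second probe sets of Msr1, Fcgr1 and Csf1r, at 0.90, 0.74 and -0.28, were not called, and that of Laptm5, at 1.54, was called higher. Of 15 fibroblast and matrix markers 1, Bgn, was called higher, with a median of 0.34, and the Bgn call was lost without eccentric A or control B, at 0.98 and 0.86, and without control B 2 others passed. Of 11 smooth muscle and Srf target genes 0 were called, with a median of -0.17, and 1 was called lower without eccentric A or without control B. Cnn1 and Gata6 lay at the floor in every pool. The log2 ratio of beta-actin probe sets at the 3′ and 5′ ends, which reflects RNA quality, averaged 0.44 over eccentric arrays, 0.21 over isometric arrays and 0.036 over control arrays. For Gapdh the same ratio averaged 0.12 over eccentric arrays, 0.099 over isometric arrays and -0.061 over control arrays. The part of these cells and of RNA quality in the values of Csrp1, Csrp2, Csrp3 and Fhl1 was not tested.

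**Figure D5:**
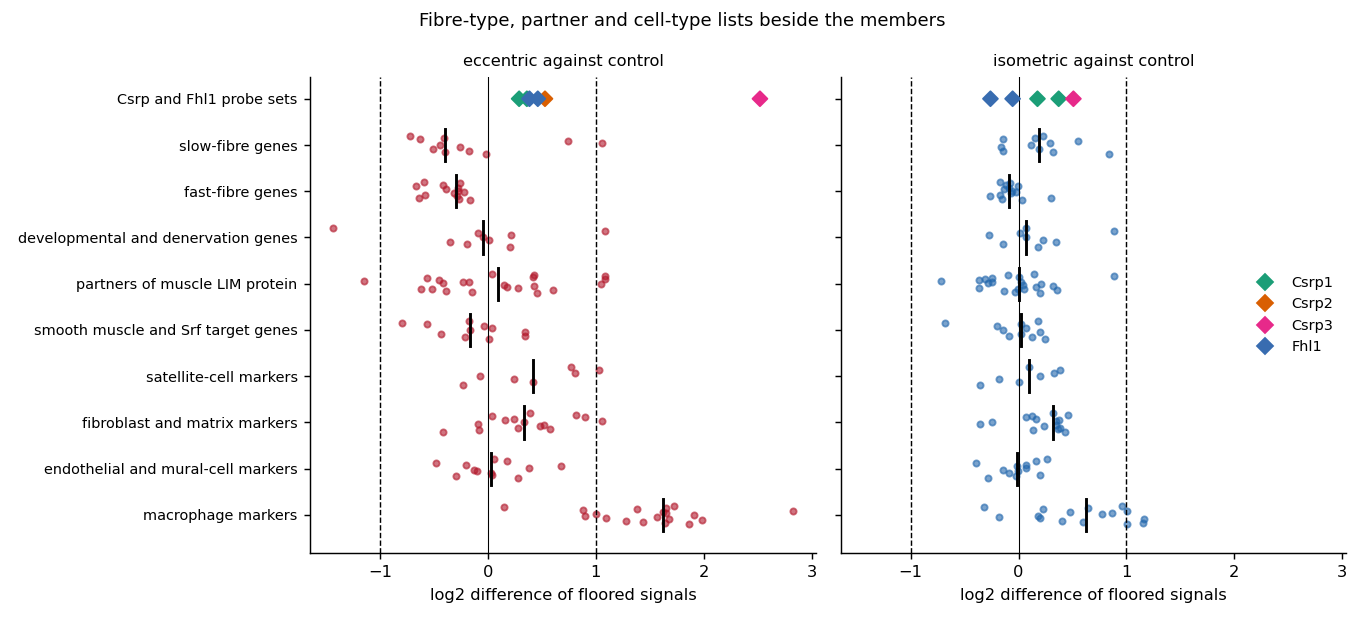
Log2 difference of floored signals (x axis) of every measured gene of 9 lists (rows, dots, with a bar at the median) and of the measured Csrp and Fhl1 probe sets (top row, diamonds), in the eccentric against control (left) and isometric against control (right) comparisons. Slow-fibre and fast-fibre medians lie below 0 in the eccentric pool, at -0.40 and -0.30, while Csrp3 lies at 2.52 and the macrophage median at 1.62.

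Genes most like each member were found among 4835 genes above the floor on all 6 arrays, by the root mean square difference of log2 signals over the 6 arrays after each gene was centred on its own mean. For Csrp3 the 5 closest were Ccl9, Ccr2, Xirp1, Cfp and Ankrd2, at distances of 0.23 to 0.24. Xirp1 is an actin-binding protein of muscle and Ankrd2 a muscle ankyrin-repeat protein that binds titin, whereas Ccl9 is a chemokine, Ccr2 a receptor of monocytes and Cfp the complement protein properdin. Ankrd2 had 4260 and 4245 on the eccentric arrays, 1482 and 1422 on the isometric arrays and 1107 and 998 on the control arrays. Xirp1 had 10913 and 10393 on the eccentric arrays, 2088 and 2548 on the isometric arrays and 2251 and 2256 on the control arrays, so its isometric and control arrays overlapped where those of Csrp3 did not.

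The closest genes to Fhl1 on 97498_at were Ebf1, Gar1 and Psmd13, at distances of 0.04 to 0.05, and those to Csrp1 on 160065_s_at were Banf1, Blmh and Psmc5, at 0.03 to 0.04. Csrp2 lay at the floor on 4 of 6 arrays, and its closest genes, Nubp1, 1810058I24Rik and Clic4, were at 0.10. Small distances are common for members that differ little between pools, and they are given as a description only.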

How the data were processed

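The deposited values are linear intensities, 1 for each probe set on each of 6 arrays. Neither labels nor file headers name the software, background correction or probe summary behind them. All values were above 0, and the trimmed means of the arrays were nearly equal (500.3 after removal of 2% at each end), so the arrays had been scaled to one target and each gene is read relative to the rest of its array. Of 12488 probe sets 10833 had 1 gene in the platform annotation, and 10817 of these matched a gene ID of the RefSeq table of GRCm38.p6, which changed 0 symbols.

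Each array was scaled to the average trimmed mean, values below the floor were raised to it before taking log2. Lists used the brightest probe set of each gene. Across all measured probe sets the 2-fold size rule was the main rule, since each group is 1 pool and p-values would measure only the spread between arrays, which are technical replicates. limma, with Benjamini-Hochberg adjustment at 0.05, was an alternative. Both were tested on simulated data. The precision is limited by 2 arrays per pool.

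The members, the 13 lists (199 genes, 164 on the array) and the tests were chosen with earlier results of these data known. The text names every probe set of the members, the called members of each list with the largest differences (at most 4 per list and comparison, not all printed), 14 preset genes (of which Fhl3 and Srf were not analysed here), and the 5 genes most like Csrp3 or 3 most like another member. Alternatives changed the scaling, floor, filter, size rule and tool, and left out each array. Python 3.11.15, numpy 2.4.6, pandas 2.3.3, matplotlib 3.10.9, R 4.3.3 and limma 3.58.1 were used.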

Additional observations from a re-analysis of the deposited data

Results flagged for a closer look

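Fhl1 on 97500_g_at and Nrap differed from the control pool in opposite directions in the exercised pools. Every array of each exercised pool lay on its side of both control arrays. Over all measured probe sets 30.4% had both eccentric arrays above both control arrays, and 19.2% had both isometric arrays below them. The share with both is not given here. For Fhl1 the log2 difference was 0.46 for the eccentric arrays and -0.26 for the isometric arrays, and for Nrap 0.28 for eccentric and -0.37 for isometric. The isometric arrays of Nrap, at 5943 and 7931, lay further from each other than the higher lay from the nearest control array, at 8280. The other measured Fhl1 probe set, 97498_at, had 0.38 and -0.06. The exercised pools share the control arrays, and with 1 pool per group the difference was not tested over animals.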

How the results depend on the processing

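Over 255 recomputed values of 17 log2 differences of the members, 247 kept their direction and their side of the 2-fold rule or of limma's threshold, 5 newly passed and 3 changed sign. A change of filter, fold threshold, sign rule or tool leaves the log2 difference itself unchanged, so direction could not change there. Leaving out both control A and isometric B repeats the omission of 1 array in both eccentric comparisons. The 247 are thus not separate checks. Csrp3 kept its calls throughout, at 2.47 to 2.58 (eccentric against control) and 1.93 to 2.09 (eccentric against isometric) with 1 array left out, and its isometric difference of 0.43 to 0.59 was never called. Csrp2 passed in both comparisons with the floor at the 20th percentile and with no floor and a pseudocount of 16 (1.495 and 1.42), and Fhl1 97500_g_at passed between eccentric and isometric at a 1.5-fold threshold. Quantile normalization, which gives every array the same distribution of signals, took Fhl1 97498_at from 0.38 to 0.60 between eccentric and control, short of 2-fold. The sign changes were in values near 0: Fhl1 97498_at between isometric and control without control A (0.033), and Csrp1 92608_at between eccentric and isometric without eccentric A (0.07) or isometric A (0.12), with -0.15 without isometric B the lowest. The cause was not tested.

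Counts of called probe sets were 413 (eccentric against control), 84 (isometric against control) and 157 (eccentric against isometric). They were 778, 358 and 435 with the lower floor, 814, 382 and 474 with no floor, and 1313, 435 and 826 at 1.5-fold. With 1 array left out they were 439 to 579, 107 to 250 and 209 to 257, and 439, 186 and 244 once control A and isometric B were both dropped. limma called 565, 0 and 68, and 293, 0 and 9 with the array letter as a replicate block. The block took Csrp3 to adjusted p = 0.0161 (eccentric against control) and 0.0389 (eccentric against isometric). Arrays of one letter share only the letter: the correlation of A minus B between pools was 0.033 (eccentric and control), -0.14 (isometric and control) and -0.039 (eccentric and isometric).

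With 1 array left out, the 4 LIM lists' genes called higher numbered 2 to 4 (eccentric against control), 0 to 1 (isometric against control) and 0 to 1 (eccentric against isometric), and those called lower 0 to 1, 0 to 0 and 0 to 1. Without both control A and isometric B they were 3, 0 and 0 higher and 0, 0 and 1 lower. Counts over all probe sets, given above, also rose in these settings, and the share of all genes called in them is not given. What signal over background limits is Csrp2 and Fhl1 97499_at, which lay at or below the floor on 4 and 6 arrays.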

Other observations

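Myogenic and nerve-dependent genes were read beside the LIM proteins because Csrp3 is known as a cofactor of myogenic factors. Of 9 measured developmental and denervation genes Myog was called higher in the eccentric against the control pool and Actc1, cardiac alpha-actin, lower. Over all measured genes 5.16% were called higher and 1.06% lower. The median log2 difference of the list was -0.05. Actc1 had 8288 and 8217 in the eccentric pool against 22316 and 22314 in the control pool, on a probe set that can also read related actins. Its second, dimmer probe set had a log2 difference of -2.52. Chrne, the adult epsilon subunit of the acetylcholine receptor, had 0.21 on its brightest probe set, and a dimmer one was called lower, at -1.02, a gene named after its values were seen. Myh3, the embryonic myosin heavy chain, lay below the floor on all 6 arrays.

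Of 7 measured satellite-cell markers 1, the proteoglycan Sdc4, was called higher in the eccentric against the control pool, at 298 and 295 against 175 and 51.1. Over all measured genes 5.16% were called higher and 1.06% lower. The list median was 0.42. Cxcr4 was at the floor on both control arrays, so its eccentric arrays fixed its direction, and it was not called. Sdc4 lay below the floor on control B, so it too was measured only through its eccentric arrays. The Sdc4 call was lost without control B, at 0.76. Of 12 endothelial and mural-cell markers 0 were called, with a median of 0.03.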
